A study of Mus musculus with 8 samples.

Results

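The genes described here are 39 genes of homologous recombination, the Fanconi anaemia pathway, the DNA damage checkpoint and mismatch repair. They were chosen by name from 38918 gene rows, and all 39 were found. The study sequenced poly(A) RNA of the mouse line BMiFLT3 (15-3), which its labels describe as proB cells of a BCP-ALL, a leukaemia of B-cell precursors. Cells were infected with a retrovirus that overexpresses Klf2 or, in the control, BFP (blue fluorescent protein). The column headers carry BFP in the names of both groups, so the Klf2 construct may carry it too. The labels give no promoter for the constructs and no time after infection. The study asked which genes are regulated by Klf2, a zinc-finger transcription factor linked to quiescence and homing in lymphocytes.

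The 8 deposited samples are 4 lanes of each construct. Read counts varied between lanes little more than counting alone gives, and the lanes were added up, so each group is 1 library and no difference below has a replicate check or a p-value. The Klf2 library held 30835450 exon reads and the BFP library 30133978. Fold means Klf2 over BFP in CPM, read counts scaled to library size with TMM (a trimmed mean of gene ratios), and each bracket is the exact 95% interval of the fold for counting error only. The RNA of Klf2 had 113 CPM in its own library against 10.1 CPM in BFP, a fold of 11.1 (9.93 to 12.6). Of 14 pro-B markers measured, 10 reached 1 CPM, with a summed level of 4087 CPM in Klf2 and 3954 in BFP. Of the 10, 7 had an interval below 1 and 3 one above, with a median log2 difference of -0.13. Cd93 had 351 CPM in Klf2 and 571 CPM in BFP, a fold of 0.614 (0.599 to 0.629), and Cd79b had a fold of 0.753 (0.722 to 0.786), while Vpreb1 had a fold of 1.49 (1.46 to 1.52) and Igll1 of 1.43 (1.40 to 1.46). The part of these markers in the results below was not tested. Cd79a, Pax5, Vpreb1 and Igll1 were between 161 and 903 CPM in the Klf2 library and between 185 and 962 CPM in BFP, while Rag1, Rag2, Dntt and Kit were below 1 CPM in both. Of the marker lists for other cell types, summed CPM was 3.31 in Klf2 and 4.76 in BFP for myeloid genes, 2.78 and 3.83 for erythroid and megakaryocytic genes, and 48.5 and 51.5 for T-cell genes. Nearly all of the T-cell sum was Cd2, and Cd3e, Cd4 and Cd8a had no read. The stromal and endothelial sum was 58.9 CPM in Klf2 and 46.1 in BFP, nearly all of it Pecam1. In bulk RNA, a change in the number of cells of a kind and a change in RNA per cell cannot be told apart. The protocols name a pair of library kits without saying which library had which, so kit and construct cannot be told apart either.

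Homologous recombination repairs a broken chromosome by copying the sister chromatid and is used mainly in S and G2 phase. Ends are trimmed to single strands, BRCA1, PALB2 and BRCA2 help build a protein filament on them that searches for the matching strand, and helicases such as BLM resolve the joined molecules. The Fanconi pathway clears crosslinks between DNA strands that block replication forks, and the kinases ATM and ATR with CHEK2 and CHEK1 hold the cell cycle while repair goes on. B-cell progenitors divide fast between rounds of programmed breakage at the immunoglobulin loci, and mice or people with faults in these genes are prone to marrow failure or lymphoid tumours.

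As a group the 39 genes were higher in the Klf2 library, by modest folds. At least 1.5-fold higher with an interval above 1 were 11 of 39, against 10.2% of the 10850 genes that reached 1 CPM in the Klf2 or the BFP library, which are the genes tested. These were Xrcc3, Blm, Brip1, Fancb, Brca1, Pms2, Fanca, Rad54l, Exo1, Msh6 and Fancd2. None was at least 1.5-fold lower, against 13.9% of all genes tested. None passed 2-fold in either direction, where 2.45% of all genes were higher and 5.67% lower. An interval above 1 at any fold was found for 29 of the 39, against 37.1% of all genes, and an interval below 1 for 3, Rad51d, Rbbp8 and Atrip, against 37.3%. The median log2(CPM + 1) difference, Klf2 minus BFP, was 0.23 over the 39 genes and -0.01 over all genes tested.

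These folds depend on scaling. On total exon reads in place of TMM, 6 of the 39 remained at least 1.5-fold higher (Xrcc3, Blm, Brip1, Fancb, Brca1 and Pms2), against 7.10% of all genes, none was at least 1.5-fold lower, against 17.5%, and the split over all genes was 771 higher and 1897 lower, where TMM gave 1112 and 1505. With that scaling 31 of 39 folds were above 1, against 32 with TMM, the difference being Rad51c. Of all 10850 genes tested, 5381 were above 1 with TMM. On uniquely placed reads 10 of the 11 were past 1.5-fold, against 9.97% of all genes, and among genes at 10 CPM or more 10 of 36 members were, against 9.70%.

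**Figure D1:**
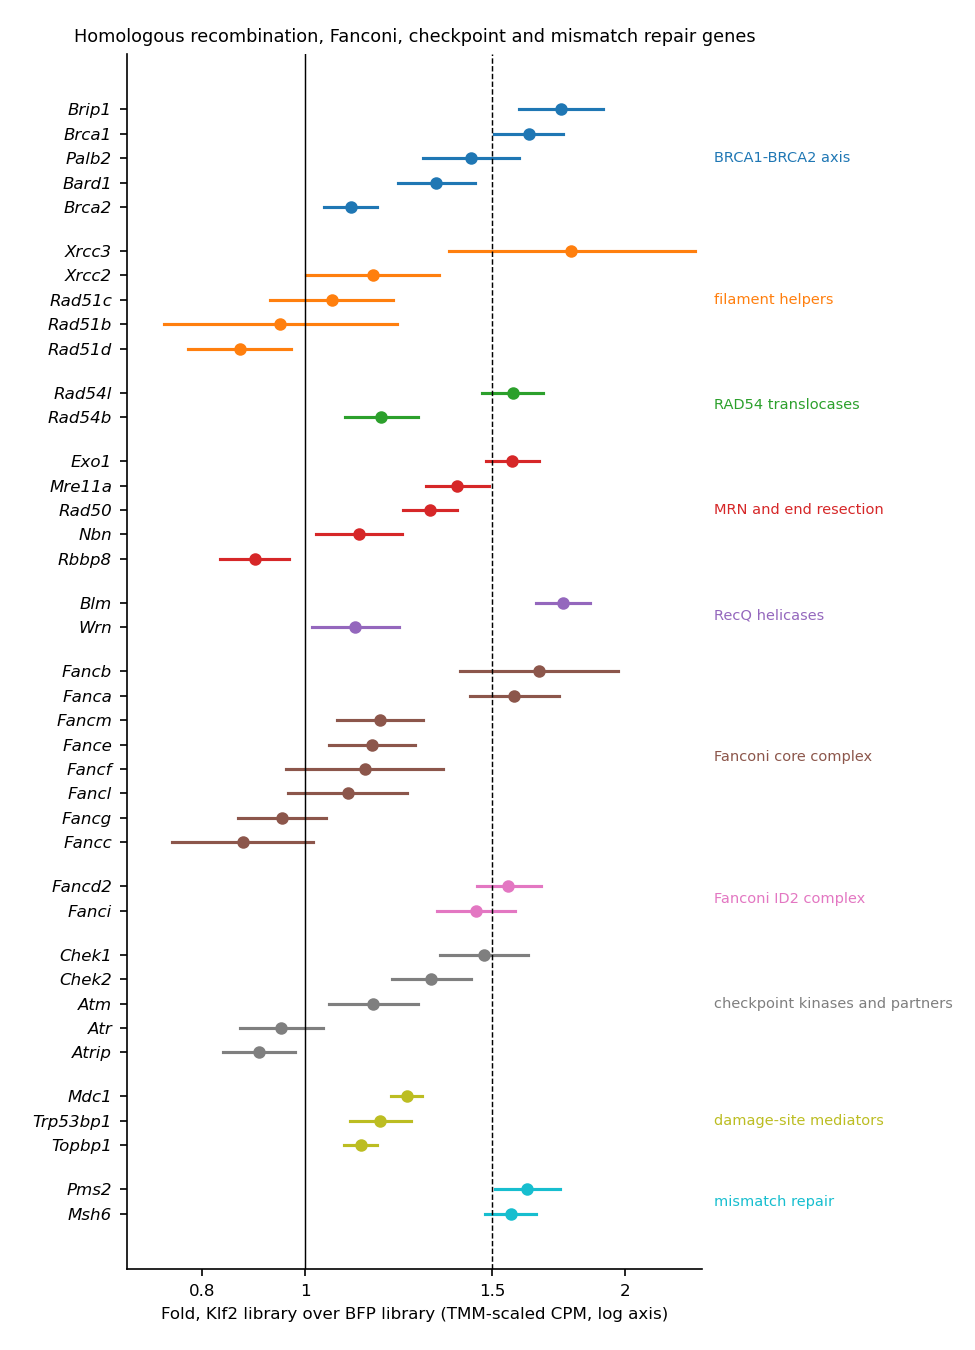
Fold of each of the 39 genes, Klf2 library over BFP library, on a log axis, with bars for the exact 95% interval of counting error and 1 colour per pathway group. The solid line marks no difference and the dashed line 1.5-fold; 32 points lie to the right of the solid line and 11 to the right of the dashed line.

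The promoters of several members are shown as a description. Genes of this kind are textbook targets of E2F and of NF-Y, which binds the CCAAT box. The part of either factor in these folds was not tested. RefSeq promoter windows (GRCm38.p6, 250 bases before to 50 after the start) matched 30 of the 39 genes, and a gene with several starts was counted when any of its windows held the word. The stretches below are the 150 bases before the start, 5′ to 3′ on the strand of the gene, with CCAAT (or ATTGG, its reverse complement) and the E2F words listed below in capitals. The first 4 genes were at least 1.5-fold higher, and Mdc1 was not. Each of these picked stretches holds CCAAT, which is not so for every member with a window.
Brip1 (chr11:86201194-86201343, minus strand): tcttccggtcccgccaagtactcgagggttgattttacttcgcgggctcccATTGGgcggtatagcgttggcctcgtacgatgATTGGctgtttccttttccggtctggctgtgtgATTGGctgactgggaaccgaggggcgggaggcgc
Brca1 (chr11:101551956-101552105, minus strand): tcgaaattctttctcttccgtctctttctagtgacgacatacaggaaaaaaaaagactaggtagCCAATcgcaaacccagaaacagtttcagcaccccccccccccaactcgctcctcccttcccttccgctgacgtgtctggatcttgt
Rad54l (chr4:116123691-116123840, minus strand): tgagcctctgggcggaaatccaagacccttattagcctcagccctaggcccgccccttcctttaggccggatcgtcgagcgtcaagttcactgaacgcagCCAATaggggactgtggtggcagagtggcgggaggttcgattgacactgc
Fanca (chr8:123318577-123318726, minus strand): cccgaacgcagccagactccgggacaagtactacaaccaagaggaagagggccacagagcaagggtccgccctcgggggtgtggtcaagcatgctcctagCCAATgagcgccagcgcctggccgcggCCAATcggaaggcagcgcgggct
Mdc1 (chr17:35841348-35841497, plus strand): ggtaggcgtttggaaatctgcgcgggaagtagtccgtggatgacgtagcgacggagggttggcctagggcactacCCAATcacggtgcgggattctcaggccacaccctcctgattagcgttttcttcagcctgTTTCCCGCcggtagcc

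An E2F word, TTTCCCGC, TTTCGCGC, TTTGCCGC or TTTGGCGC on either strand, stood in the window of 8 of the 30 genes (26.7%), against 5.06% of 7963 genes at 1 CPM or more and 46.4% of 28 replication fork genes. The 8 were Brca2, Bard1, Rad51c, Fancg, Chek2, Mdc1, Topbp1 and Msh6. Of these only Msh6 was at least 1.5-fold higher, so the word stood in 1 of 9 such members with a window and in 7 of the other 21. CCAAT stood in 20 of 30 windows (66.7%), against 43.7% of genes with at least 1 CPM and 67.9% of the 28 replication fork genes. It stood in 9 of 9 windows of members at least 1.5-fold higher and in 11 of the other 21. The cell-cycle homology word TTTGAA or TTCGAA stood in 3 of 30 windows, against 16.7%. The KLF box CACCC stood in 15 of 30 (50%), against 65.9%, and the longer CCACACCC in 2 of 30, Fanca and Mdc1, against 4.51%. These are matches of letters, with no test of binding or of a difference between the sets.

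In the build of the table (mm10), Brip1 lies at chr11:86058138-86201193, Brca1 at chr11:101488764-101551955 and Xrcc3 at chr12:111803192-111813873. Blm lies at chr7:80454993-80535119, Exo1 at chr1:175880778-175911396 and Rad54l at chr4:116094264-116123690. Fancd2 lies at chr6:113531682-113597017, Fanca at chr8:123268300-123318576 and Fancb at chrX:164980592-164997272. Msh6 lies at chr17:87975050-87990883 and Pms2 at chr5:143909964-143937309. The 11 genes past 1.5-fold were thus spread over several chromosomes. Per exon length, levels of the 39 ran from 1.11 RPKM (Fancc) to 32.5 RPKM (Topbp1) in the Klf2 library, and from 0.941 RPKM (Xrcc3) to 30.6 RPKM (Topbp1) in BFP.

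In the BRCA1-BRCA2 axis all 5 genes had an interval above 1, 2 were at least 1.5-fold higher, and the median log2 difference was 0.50. Brip1, a helicase that binds BRCA1 (also the Fanconi gene FANCJ), had 322, 323, 312 and 305 exon reads in the 4 Klf2 lanes against 196, 192, 184 and 183 in the BFP lanes. Every Klf2 lane was above every BFP lane, and the fold was 1.74 (1.59 to 1.91), at 42.2 CPM in Klf2 against 24.3 CPM in BFP. Brca1, the ubiquitin ligase and scaffold that directs broken ends to recombination, had 464, 433, 481 and 436 reads in the Klf2 lanes against 280, 314, 273 and 297 in the BFP lanes, a fold of 1.62 (1.51 to 1.75). Its partner in the ligase, Bard1, was 1.33-fold higher (1.22 to 1.44), and Palb2, which bridges BRCA1 and BRCA2, 1.43-fold higher (1.29 to 1.59). Brca2, which acts in building that filament, was closest to the BFP level, with 83.6 CPM in Klf2 and 75.7 CPM in BFP, a fold of 1.10 (1.04 to 1.17). The intervals of Brca1 and Brca2 did not overlap.

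**Figure D2:**
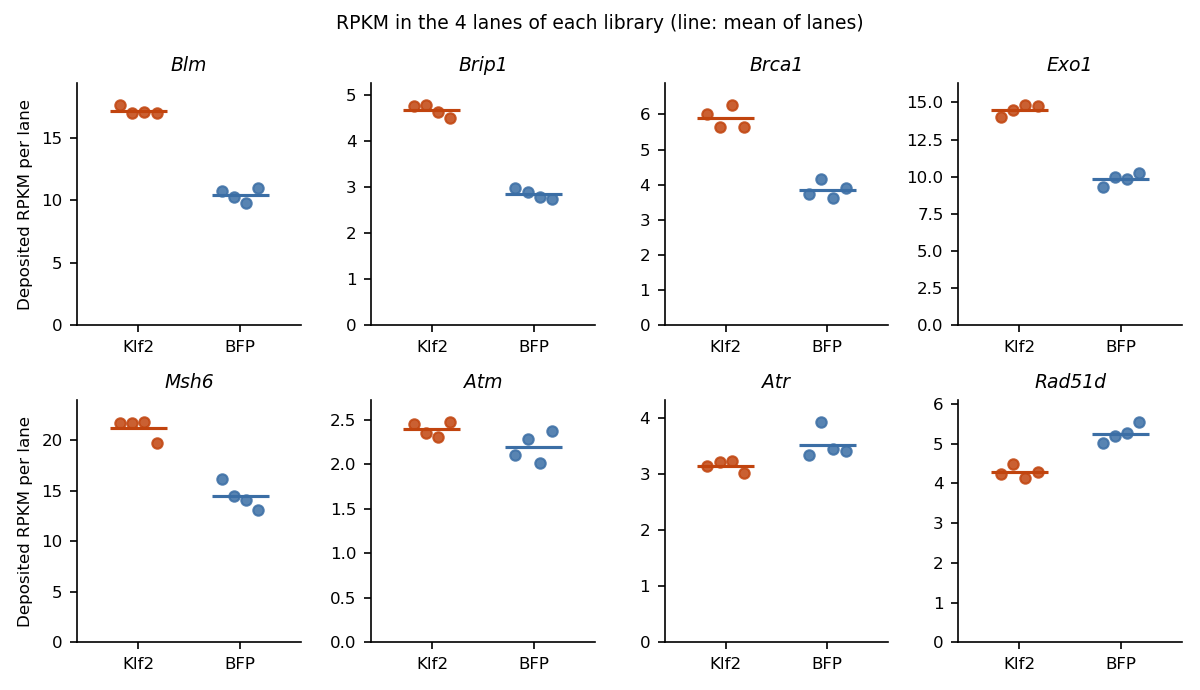
Deposited RPKM of 8 genes in each of the 4 lanes of the Klf2 library (left in each panel) and of the BFP library (right), with a line at the mean of lanes; lanes are repeat runs of 1 library. Lanes do not overlap for Blm, Brip1, Brca1, Exo1 and Msh6, higher in Klf2, and for Rad51d and Atr, lower in Klf2. The interval of the Atr fold, 0.868 to 1.04, held 1 all the same.

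The filament helpers Rad51b, Rad51c, Rad51d, Xrcc2 and Xrcc3, which help the filament form and hold, did not share this direction. Only 1 of 5 was at least 1.5-fold higher and the median log2 difference was 0.08. Xrcc3 had 40, 40, 37 and 40 reads in the Klf2 lanes against 25, 18, 22 and 27 in the BFP lanes, a fold of 1.78 (1.36 to 2.32). Its counts are the lowest of the 11 genes past 1.5-fold. It also overlaps 4653 bases of Klc1, which had 4118 reads in Klf2 and 4899 in BFP, and 73.1% of its own reads were uniquely placed, on which the fold was 1.56. Xrcc2 had 105, 97, 102 and 102 reads in the Klf2 lanes against 87, 93, 98 and 87 in the BFP lanes, a fold of 1.16 (1.002 to 1.34). Rad51d had 143, 151, 139 and 145 reads in the Klf2 lanes against 165, 171, 173 and 184 in the BFP lanes, a fold of 0.868 (0.776 to 0.971). Rad51c, at 15.2 CPM in Klf2 and 14.3 in BFP, and Rad51b, at 4.12 CPM in Klf2 and 4.34 in BFP, had intervals that held 1.

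Of the RAD54 translocases, which move along DNA and help the filament find its match, Rad54l had 568, 560, 573 and 560 reads in the Klf2 lanes against 407, 374, 358 and 363 in the BFP lanes. Its fold was 1.57 (1.47 to 1.67), and 1.53 on the 82.9% of reads that were uniquely placed. Rad54l overlaps 2780 bases of Lrrc41, which had 1255 reads in Klf2 and 1643 in BFP. Rad54b had 323, 350, 329 and 322 reads in the Klf2 lanes against 311, 264, 316 and 277 in the BFP lanes, a fold of 1.18 (1.09 to 1.28), with 66.3% of reads uniquely placed. The intervals of the pair did not overlap.

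Among genes that sense and trim broken ends, 4 of 5 had an interval above 1. Exo1, the nuclease of long-range trimming that also acts in mismatch repair, had 701, 722, 739 and 740 reads in the Klf2 lanes against 454, 488, 482 and 504 in the BFP lanes, a fold of 1.57 (1.48 to 1.66). Of the complex that first binds the ends, the nuclease gene Mre11a had 519, 495, 479 and 485 reads in the Klf2 lanes against 386, 361, 375 and 359 in the BFP lanes, a fold of 1.39 (1.30 to 1.49). Its partner Rad50 was 1.31-fold higher (1.24 to 1.39) and Nbn 1.12-fold (1.02 to 1.23), and the interval of Nbn lay just below those of the other two. Rbbp8, which encodes CtIP, the starter of end trimming, went the other way, with 42.7 CPM in Klf2 and 47.6 CPM in BFP, a fold of 0.897 (0.831 to 0.967).

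The RecQ helicases also differed. Blm, which dissolves crossed-over DNA and is lost in Bloom syndrome, had 792, 760, 762 and 764 reads in the Klf2 lanes against 469, 451, 428 and 485 in the BFP lanes. Its fold of 1.75 (1.65 to 1.85) was the largest of the 39 genes on the log2(CPM + 1) scale, at 0.79. Wrn, the Werner syndrome helicase, had 229, 245, 220 and 225 reads in the Klf2 lanes against 196, 206, 225 and 231 in the BFP lanes, and these lanes overlap, with a fold of 1.11 (1.01 to 1.22).

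In the Fanconi core complex, the ubiquitin ligase of the pathway, 2 of 8 genes were at least 1.5-fold higher and the median log2 difference was 0.18. Fancb, on the X chromosome, had 104, 98, 73 and 77 reads in the Klf2 lanes against 54, 53, 67 and 47 in the BFP lanes, a fold of 1.66 (1.40 to 1.97). Fanca had 266, 273, 269 and 274 reads in the Klf2 lanes against 189, 159, 176 and 192 in the BFP lanes, a fold of 1.57 (1.43 to 1.73). All 50277 bases of Fanca lie within the row Gm20388, which had 3497 reads in Klf2 and 3705 in BFP. Fancl, the catalytic subunit, had a fold of 1.10 (0.964 to 1.25). Fancm, the translocase that anchors the complex on DNA, was at 1.18 (1.07 to 1.29) and Fance at 1.16 (1.05 to 1.27). Fancf, Fancg and Fancc had intervals that held 1. Of these, Fancc had the lowest fold, 0.874 (0.750 to 1.02), at 10.7 CPM in Klf2 and 12.2 in BFP.

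The substrates of that ligase, the clamp pair Fancd2 and Fanci, were both higher. Fancd2 had 497, 513, 520 and 504 reads in the Klf2 lanes against 356, 328, 334 and 345 in the BFP lanes, a fold of 1.55 (1.45 to 1.66). Fanci had 345, 342, 336 and 309 reads in the Klf2 lanes against 229, 214, 231 and 284 in the BFP lanes, a fold of 1.45 (1.33 to 1.57). Without lane 4 of both libraries the fold of Fanci was 1.58, past 1.5. Without lane 1, 2 or 3 it was 1.41, 1.38 and 1.43, and with total-read scaling 1.36, all short of 1.5. Its row overlaps 1475 bases of Polg, and 78.5% of its reads were uniquely placed.

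None of the 5 checkpoint kinases and partners was past 1.5-fold, and the effector kinases had larger folds than the kinases that start the signal, with the interval of Chek1 above those of Atm and Atr and that of Chek2 overlapping that of Atm. Chek1, the effector of ATR, had 265, 257, 271 and 262 reads in the Klf2 lanes against 177, 174, 195 and 200 in the BFP lanes, a fold of 1.47 (1.34 to 1.62). The fold of Chek1 was 1.45, 1.45, 1.48 and 1.51 without lane 1, 2, 3 or 4, and 1.38 with total-read scaling. Chek2, the effector of ATM, had 297, 302, 307 and 323 reads in the Klf2 lanes against 216, 226, 267 and 264 in the BFP lanes, a fold of 1.31 (1.21 to 1.43). Atm, which responds to double-strand breaks, had 30.1 CPM in Klf2 and 26.0 CPM in BFP, a fold of 1.16 (1.05 to 1.28). Atr, which responds to single-stranded DNA at stalled forks, had 30.9 CPM in Klf2 and 32.5 CPM in BFP, a fold of 0.95 (0.868 to 1.04). Its partner Atrip had 40.3 CPM in Klf2 and 44.5 CPM in BFP, a fold of 0.905 (0.837 to 0.978) on all reads. On the 56.2% of Atrip reads that were uniquely placed its fold was 1.20, so its direction turned with read placement.

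The damage-site mediators, large proteins that gather repair factors on chromatin, were all slightly higher. Mdc1, the reader of phosphorylated histone H2AX, had 1934, 1912, 1881 and 1910 reads in the Klf2 lanes against 1637, 1583, 1562 and 1597 in the BFP lanes, a fold of 1.25 (1.20 to 1.29). Trp53bp1, which favours end joining over recombination, had 480, 476, 487 and 473 reads in the Klf2 lanes against 417, 378, 441 and 458 in the BFP lanes, a fold of 1.18 (1.10 to 1.26). Topbp1, the activator of ATR, was at 1.13 (1.09 to 1.17). Per exon length, Topbp1 and Mdc1 were the most abundant of the 39 in both libraries, at 32.5 and 28.3 RPKM in Klf2 against 30.6 and 24.2 RPKM in BFP.

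Both mismatch repair genes were past 1.5-fold. Msh6, which acts in recognising mismatched bases, had 838, 835, 838 and 764 reads in the Klf2 lanes against 608, 547, 532 and 498 in the BFP lanes, a fold of 1.56 (1.48 to 1.65). It was the third of the 39 by RPKM, at 21.2 in Klf2 against 14.5 in BFP. Pms2, which nicks DNA in mismatch repair, had 495, 522, 493 and 508 reads in the Klf2 lanes against 319, 330, 313 and 337 in the BFP lanes, a fold of 1.62 (1.51 to 1.73). Only 42.03% of Pms2 reads were uniquely placed, and on those the fold was 1.495, just short of 1.5.

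Reads that fall within the gene but outside its exons are a second readout that did not enter the exon folds. They were scaled to their own library totals. Of 38 members with enough such reads, 36 were higher in the Klf2 library and 11 at least 1.5-fold higher with an interval above 1, against 7.77% of 14494 genes, and none at least 1.5-fold lower, against 17.4%. The median fold was 1.36 for the members and 0.909 for all genes so measured. The share of all such genes above 1 was not counted. The 11 shared 6 genes with the 11 on exon reads, Brca1, Brip1, Exo1, Blm, Fancb and Pms2, and added Bard1, Palb2, Rad51b, Mre11a and Chek1. Exo1 had a fold of 2.19 (1.94 to 2.48) outside exons, Brca1 of 2.09 (1.82 to 2.40) and Brip1 of 1.99 (1.76 to 2.24), each above its exon fold. Rad51b stood apart, with 664 reads outside exons in Klf2 against 345 in BFP, a fold of 1.90 (1.66 to 2.17), beside an exon fold of 0.948. Rbbp8 was lower on both readouts, at 0.872 (0.814 to 0.933) outside exons, while the interval of Rad51d there held 1, at 0.854 (0.638 to 1.14). On reads across exon junctions, again on their own totals, 27 of 38 members were above 1. Past 1.5-fold with an interval above 1 were 4, Brip1, Blm, Chek1 and Msh6, against 6.50% of 9802 genes, and none was at least 1.5-fold lower, against 16.4%. The median junction fold was 1.22 for the members and 0.932 for all genes, again without a count of all genes above 1.

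**Figure D3:**
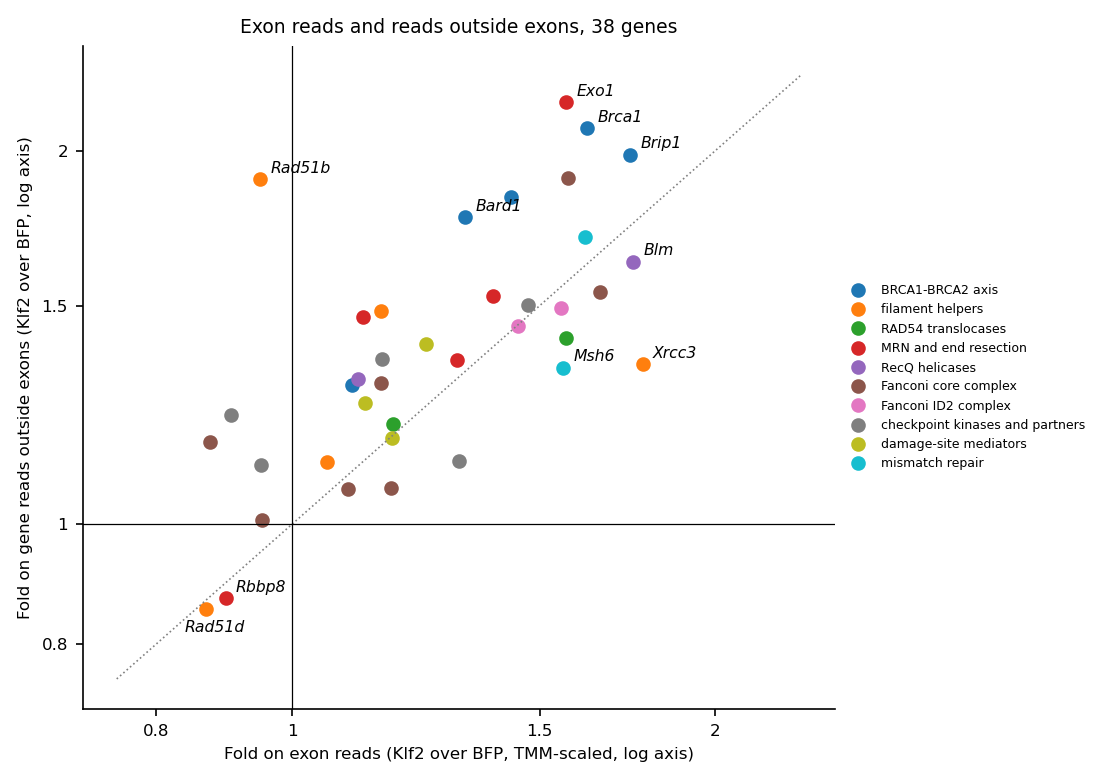
Fold on exon reads (horizontal, TMM-scaled) against fold on gene reads outside exons (vertical, scaled to their own totals) for 38 genes, both on log axes, Klf2 over BFP, coloured by pathway group. The dotted line marks equal folds. Above it lie 25 genes, and Rad51b is high only on the vertical axis. The axes are scaled differently. Over all genes measured, the median fold was 0.909 on the vertical axis, and the median log2 difference on exon reads was -0.01. The share of all genes above the line was not counted.

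Of the 39, 22 overlap another row of the table and 9 overlap one with at least 200 reads, which beside those named above are Fancc, Fancf, Fancl, Trp53bp1 and Msh6.

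Several members start head to head with a gene on the other strand. By GENCODE positions, 11 members had a measured protein-coding partner that starts within 1000 bases on the opposite strand. None of the 11 partners was at least 1.5-fold higher, against 10.2% of all genes tested, and 1 was at least 1.5-fold lower (Purg, beside Wrn), against 13.9%. Counts this small do not set the partners apart from all genes, and their values are given as a description. Nbr1, an autophagy receptor gene 194 bases from the start of Brca1, had 63.0 CPM in Klf2 and 89.1 CPM in BFP, a fold of 0.707 (0.667 to 0.75), beside 1.62 for Brca1. Dctn5, 56 bases from Palb2, had a fold of 0.738 (0.688 to 0.791), beside 1.43 for Palb2, and Hscb, 202 bases from Chek2, of 0.728 (0.636 to 0.832), beside 1.31. Aimp2, beside Pms2, was at 1.17 (1.11 to 1.25) and Pomgnt1, beside Rad54l, at 1.14 (1.05 to 1.23). Npat, a regulator of histone genes 307 bases from Atm, was at 1.24 (1.15 to 1.33), beside 1.16 for Atm.

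**Figure D4:**
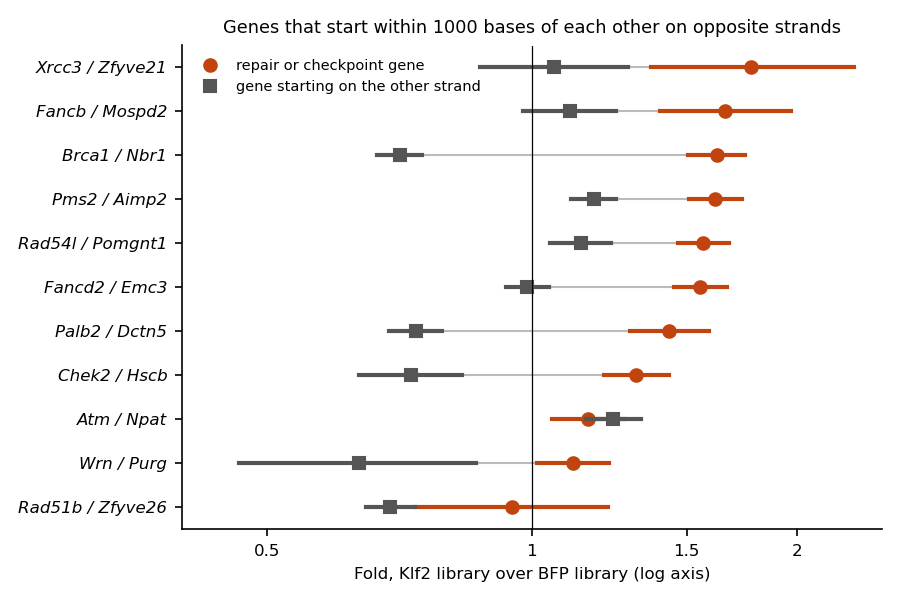
Fold, Klf2 library over BFP library (log axis), with exact 95% intervals for 11 repair or checkpoint genes (circles) and the genes that start within 1000 bases on the other strand (squares). Brca1 is at 1.62 and Nbr1 at 0.707, and the intervals of Atm and Npat overlap.

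Of 60 other genes of the same pathways, 9 were at least 1.5-fold higher (15%, beside 28.2% of the 39 and 10.2% of all genes tested) and none was at least 1.5-fold lower, against 13.9%. An interval above 1 was found for 37 (61.7%, beside 37.1% of all genes) and one below 1 for 9, against 37.3% of all genes. The median log2 difference was 0.31. Among the 9 lower genes, named after their values were seen, were Slx4, a scaffold for nucleases, at a fold of 0.749 (0.705 to 0.796), Bre, a subunit of a BRCA1 complex, at 0.788 (0.739 to 0.840), and Slx1b, the nuclease partner of SLX4, at 0.825 (0.723 to 0.940). In recombination, 4 of 23 passed 1.5-fold (17.4%, beside 10.2% of all genes). They were Polq, the polymerase of microhomology end joining, at 1.8 (1.63 to 2.0), the resolvase gene Gen1 at 1.77 (1.63 to 1.92), Rmi2, a partner of BLM, at 1.57 (1.40 to 1.76), and the nuclease-helicase gene Dna2 at 1.51 (1.44 to 1.58). In the Fanconi set, 1 of 11 passed (9.09%, near the 10.2% of all genes), Apitd1, the DNA-binding partner of FANCM, at 1.90 (1.70 to 2.13). In the checkpoint set, 4 of 21 passed (19.0%, beside 10.2% of all genes). Cdc25a, the phosphatase that CHEK1 restrains, had 188 CPM in Klf2 and 90.3 CPM in BFP, a fold of 2.08 (1.98 to 2.17). Clspn and Tipin, which carry the signal from ATR to CHEK1 at forks, were 1.95-fold (1.85 to 2.04) and 1.91-fold (1.83 to 1.99) higher, and Wee1, the kinase that opposes CDC25, 1.56-fold (1.41 to 1.72). None of 5 further mismatch repair genes passed, against 10.2% of all genes, with Pms1 at 1.45 (1.22 to 1.71). Counts this small do not set the separate sets apart from all genes.

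The median log2 difference of the 39 genes lay between that of the replication fork and those of excision repair and end joining. Of 34 replication fork genes, 25 were at least 1.5-fold higher (73.5%, against 10.2% of all genes) and none lower, against 13.9%. Their median log2 difference was 0.66, led by Orc1 (2.41-fold, 2.11 to 2.75, with 35.5% of reads uniquely placed) and Cdc6 (2.06-fold, 1.96 to 2.17). On uniquely placed reads 23 were at least 1.5-fold higher, against 9.97% of all genes. Fen1, 1.55-fold higher on all reads, was at 0.946 on the 4.12% uniquely placed. Pcna, also 1.55-fold higher, was at 1.48 on its 39.5%. Of 26 genes of base and nucleotide excision repair, 3 were at least 1.5-fold higher (11.5%, near the 10.2% of all genes) and 1 lower, with a median of 0.14, from Parp1 at a fold of 1.77 (1.72 to 1.82) to Neil1 at 0.494 (0.445 to 0.548). Of 12 end-joining genes, 1 was at least 1.5-fold higher, Lig4 (2.03-fold, 1.81 to 2.28), and 1 lower, Polm (0.527-fold, 0.460 to 0.602). That is 8.33% higher, near the 10.2% of all genes, and 1 of 12 lower, against 13.9%. Counts this small do not set the list apart from all genes. Its median was -0.16. Of 15 measured p53 target genes, none was at least 1.5-fold higher, against 10.2% of all genes, and 5 were lower, against 13.9%. Their median was -0.34, with Trp53inp1 lowest, at a fold of 0.271 (0.252 to 0.291). The fork genes, which are used in S phase, were higher together with the 39 genes, and the part of that in the folds of the 39 was not tested. With total-read scaling the medians were 0.14 for the 39 genes, 0.57 for the replication fork, 0.05 for excision repair and -0.24 for end joining, where the median of all genes was -0.09. The lists were not tested against each other.

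**Figure D5:**
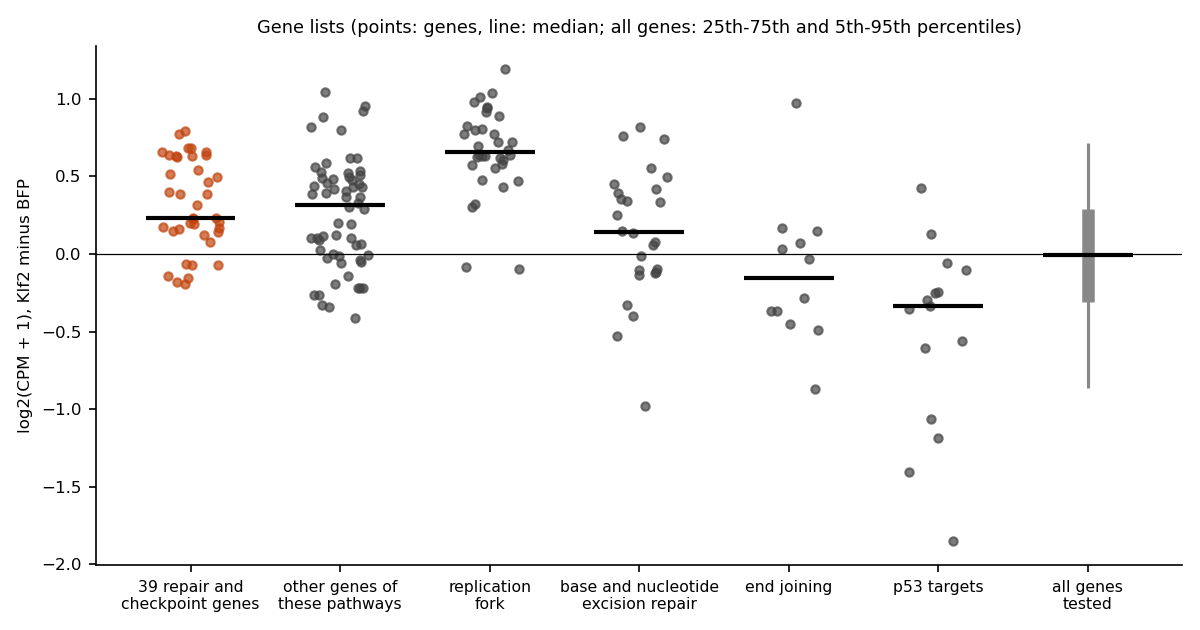
Difference in log2(CPM + 1), Klf2 minus BFP, for each gene of 6 lists (points, with a line at the median), and for all 10850 genes tested (thick bar, 25th to 75th percentile; thin bar, 5th to 95th). The medians are 0.23 for the 39 genes, 0.31 for other genes of their pathways, 0.66 for the replication fork, 0.14 for excision repair, -0.16 for end joining and -0.34 for p53 targets.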

How the data were processed

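RNA-seq of 8 samples, 4 lanes of each of 2 libraries, was analysed from 1 table of 38918 genes. Per the file headers, the authors' counts, per gene and lane, cover exon reads (in total and uniquely placed), gene reads and reads across exon junctions, and RPKM is also given. The submitters' processing notes name CASAVA 1.8.2 and mm10. Aligner, counter, annotation and strand use: not given in the sources used here. Overlapping genes may therefore share reads. Deposited RPKM differed by at most 0.0258 from values recomputed from exon reads, exon length and library total.

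Chi-square of lane counts per degree of freedom, over genes with at least 20 reads, was 1.27 (Klf2) and 1.29 (BFP), under the limit of 1.5, so lanes were summed and n = 1 per group. A count of 0 allows up to 0.0973 CPM (Klf2) and 0.0996 CPM (BFP), from 3 reads. Counts have no molecular identifiers, so intervals cover counting error only.

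CPM used TMM (edgeR 4.0.16, R 4.3.3). A gene was past a fold with a ratio of at least 1.5 (or 2) and a Clopper-Pearson 95% interval excluding 1, among genes at 1 CPM or more in the Klf2 or BFP library. The rule was tested on simulated data. Alternatives were other scalings (DESeq2 1.42.0 size factors), reads, floors, pseudocounts and lanes. No column of other samples was present. The members and lists were chosen with earlier results of these data known. All members may be named. Lane values are given for the 2 members of each group with the largest log2 difference and some others, and other lists name up to 4 genes by the same rule. Of the other listed pathway and marker genes, 4 did not match a row and are not analysed here. Promoters are from RefSeq (GRCm38.p6) and starts from GENCODE M21.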

Additional observations from a re-analysis of the deposited data

How the results depend on the processing

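On exon reads, no member passed 2-fold or fell past 1.5-fold under any alternative run. The count of members at least 1.5-fold higher was 6 with total-read scaling and 6 with deposited RPKM, between 11 and 13 with 1 lane left out, and 10 or 11 under the others. With total-read scaling, 0 of 60 other pathway genes stayed past 2-fold. Of 34 replication fork genes, 16 were past 1.5-fold upward, against 7.10% of all genes, and 1 past 2-fold. Of 12 end-joining genes, 3 were past 1.5-fold downward, against 17.5% of all genes, 1 past 2-fold downward and 0 past 2-fold upward. Excision repair genes at least 1.5-fold lower were 2 of 26, against 17.5%. Counts this small do not set end joining or excision repair apart from all genes. Shares of all genes past 2-fold were not counted with this scaling. Deposited RPKM gave the same counts, 6, 0, 16, 1, 3, 1, 0 and 2. RPKM also scales exon reads to a library total, so this match is not a separate check. On RPKM, genes were called by fold alone, at 1 RPKM or more and without an interval. The median log2(RPKM + 1) differences were 0.12 for the members, 0.21 for other pathway genes and 0.54 for the replication fork. With 1 lane left out of both libraries, replication fork genes past 2-fold were 3 to 5, end-joining genes at least 1.5-fold lower 1 to 2 and at least 2-fold lower 0 to 1, and excision repair genes at least 2-fold lower 0 to 1. Shares of all genes were not counted with lanes left out. A floor of 10 CPM left 36 members and removed Xrcc3, Rad51b and Fancf. The cause of these shifts was not tested. No paired analysis was possible because each group is 1 library, lanes are repeat runs of it, and no test was made. Depth limits the genes with few reads, such as Xrcc3 and Rad51b, whose intervals are wide.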

Other observations

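Genes were split by mean CPM into 5 groups of the same size, and the 39 genes were not spread evenly over them. The fourth group, 52.6 to 110 CPM, held 10 members, of which 6 were at least 1.5-fold higher, against 9.26% of the 2170 genes there, with a median log2 difference of 0.63 for the members and 0.06 for the group. The third group, 24.8 to 52.6 CPM, held 17 members, of which 3 were past 1.5-fold, against 7.28%, with medians of 0.23 for the members and -0.03 for the group. The group of highest CPM held Mdc1 and Topbp1, and neither was past 1.5-fold, against 14.0%.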
